A study of Homo sapiens with 8 samples.

Results

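The 10 genes described here belong to the Wnt and beta-catenin pathway: the co-receptors LRP5 and LRP6, the destruction complex genes APC, AXIN1, AXIN2 and GSK3B, beta-catenin itself (CTNNB1), and the nuclear factors TCF7L2, LEF1 and TLE3. They were taken by symbol from both m6A peak lists of Mel624 melanoma cells, and not by their scores. Earlier results of these data were known when they were chosen. Of the 10 genes, 8 had a peak in either list and 7 in both, among 10078 mRNAs with a peak in either list, of which 86.3% were in both. AXIN2, a target gene and feedback inhibitor of the pathway (chromosome 17, 65528563 to 65561648), and TCF7L2, a DNA-binding partner of beta-catenin (chromosome 10, 112950247 to 113167678), had no peak in shFTO or shNC cells. An mRNA with too few reads and an mRNA whose windows missed the thresholds look alike here, since both are simply not listed. LRP5 had a peak in shFTO cells and none in shNC cells.

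Wnt ligands bind Frizzled receptors together with LRP5 or LRP6 at the cell surface. Without ligand, APC, the axins, GSK3 and casein kinase form the destruction complex, which marks beta-catenin for degradation. With ligand this complex is inactivated, and beta-catenin enters the nucleus, binds TCF and LEF factors and takes the place of the TLE corepressors. In the melanocyte lineage the pathway is known for its role in specifying pigment cells and for its target gene MITF.

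Mel624 is an established human melanoma line. The shFTO cells carried a short hairpin RNA against FTO, an enzyme that removes m6A from RNA, and the shNC cells carried a negative control hairpin; both were made with lentivirus, selected with puromycin and grown in medium with serum and no further treatment. There were 2 replicates of each line, sequenced as m6A-IP and as input, which makes 8 libraries. The value given for a peak is the log2 enrichment score of each replicate, which divides IP over input in the peak by IP over input in the median window of the same mRNA, so it is a level set against the rest of the transcript and holds neither expression nor library size. The number of hairpin sequences and of clones behind each line was not given in the sources used here, nor was it stated whether the replicates came from separate cultures. The p-values below therefore measure only the spread between these libraries, which may be technical. An exact permutation test of 2 against 2 replicates cannot go below a two-sided p of 0.333.

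The shFTO list held 18551 peaks and the shNC list 19072, and since neither gives read counts, the depth is unknown. Of the 10 melanocyte lineage markers, 9 were listed in shFTO and 8 in shNC, while none of 4 keratinocyte, 4 leukocyte and 3 endothelial markers was listed in either group. Of 4 fibroblast markers, LUM was listed in both. FTO, the target of the hairpin, had 2 peaks in shFTO and 3 in shNC. These scores do not give the level of FTO mRNA, which was not analysed here, so the knockdown was not checked. Scores of shared peaks correlated at Pearson r = 0.908 between the shFTO replicates and 0.901 between the shNC replicates, and at 0.879 to 0.925 between libraries of different groups, over 12117 pairs of peaks that are not independent replicates.

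The peaks of the 8 listed genes held 15 matches to GGACT, a sequence in which m6A is often found, written here with T for the U of RNA. Each match was found again on a GENCODE version 44 transcript and had 1 place in hg38. The 10 sequences below are those of the LRP5 peak that was listed in shFTO only, of LRP6, which had more matches than the other genes, and of the 5′UTR peaks of CTNNB1, LEF1 and TLE3. Each is 25 nt of the mRNA strand, 5′ to 3′, written as DNA, with the GGACT match in capitals, and the number after the gene is the position of its first base in the authors' isoform.
LRP5 4967: ccccctgcacGGACTcatcctgacc
LRP6 232: caaacagacgGGACTtgcgattggt
LRP6 313: cagctgcggtGGACTttgtgtttag
LRP6 1272: tacatctactGGACTgatgatgaag
LRP6 1375: gtattgctgtGGACTgggttgcacg
LRP6 1785: tatgtttactGGACTgactggcaga
LRP6 2178: cgaatttattGGACTgatatatcac
CTNNB1 189: gaggacggtcGGACTcccgcggcgg
LEF1 287: aagaggggtcGGACTgagtgtgtgt
TLE3 372: cgtgcccgctGGACTtaggatgcca

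The GGACT match of LRP5 lay in coding sequence of exon 23 (chr11:68449058-68449062, plus strand). The LRP6 matches lay in coding sequence on the minus strand, in exon 2 (chr12:12244620-12244624 and chr12:12244539-12244543), exon 6 (chr12:12181285-12181289 and chr12:12181182-12181186), exon 8 (chr12:12165197-12165201) and exon 9 (chr12:12164288-12164292). Those of CTNNB1 (chr3:41199636-41199640, plus strand), LEF1 (chr4:108168669-108168673, minus strand) and TLE3 (chr15:70097545-70097549, minus strand) lay in the 5′UTR part of exon 1. The LRP6 matches at 1272, 1785 and 2178 shared a longer run of bases, TANTGGACTGA, where N is any base. These matches lay in coding sequence, and whether the run comes from the amino acids encoded there was not tested. This run was looked for on the mRNA strand only, after the sequences had been seen. Its share of the matches in LRP6 peaks was fixed by how it was chosen, and no share was tested. It was taken as the longest run, with at most 1 open base, that any 3 of the LRP6 matches shared. It held 3 of the 6 matches in LRP6 peaks, 6 of all 19 GGACT matches of the LRP6 transcript in and outside peaks, and 61 of the 73213 matches (0.0833%) in the longest protein-coding transcripts of 19702 GENCODE genes. The matches that are not printed were those at 8182 and 8520 of APC, 700 and 737 of AXIN1 and 3609 of TLE3.

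These genes differed in how many peaks they carried, and LRP6 and APC had the most. The shFTO list had 25 peaks in 8 of them and the shNC list 29 peaks in 7, which is 3.13 and 4.14 peaks per gene, against means of 1.96 and 2.05 over all genes of the lists. LRP6 gave 6 of the shFTO and 8 of the shNC peaks and APC 5 and 7, and the median gene had 2.5 peaks in shFTO and 3 in shNC, against 2 and 2 over all genes. In coding sequence were 13 of the 25 shFTO peaks (52.0%) and 15 of the 29 shNC peaks (51.7%), against 32.1% and 32.7% of all peaks. The LRP6, APC and AXIN1 mRNAs gave all of these coding peaks. At the stop codon lay 4 shFTO peaks and 2 shNC peaks, in the 3′UTR 2 and 3, at the start codon 1 and 2, and in the 5′UTR 5 and 7. At places in APC, LEF1 and TLE3, 1 shFTO peak overlapped 2 abutting shNC peaks, so these counts depend on how peaks were divided. They were not set against the length of the mRNAs.

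The median mean score of these peaks was 3.17 in shFTO and 3.08 in shNC, against 2.52 and 2.55 over all peaks of the lists. A GGACT match was present in 11 of the 25 shFTO peaks (44%) and 10 of the 29 shNC peaks (34.5%), against 38.1% and 36.3% of all peaks. The same matches lay in peaks of both lists, apart from that of LRP5. The divided shNC peaks of LEF1 and TLE3 add peaks without a match and so lower the shNC share. No peak of these genes had a replicate with a score below 1. Of their peaks, 2 of 25 in shFTO (8.0%) and 2 of 29 in shNC (6.90%) had no overlapping peak in the other list, where the background was 14.2% of all shFTO peaks and 14.6% of all shNC peaks. These 4 were the LRP5 and CTNNB1 stop codon peaks of shFTO and the LRP6 start codon and distal 3′UTR peaks of shNC. These shares are counts from 1 list per group and were not tested.

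**Figure D1:**
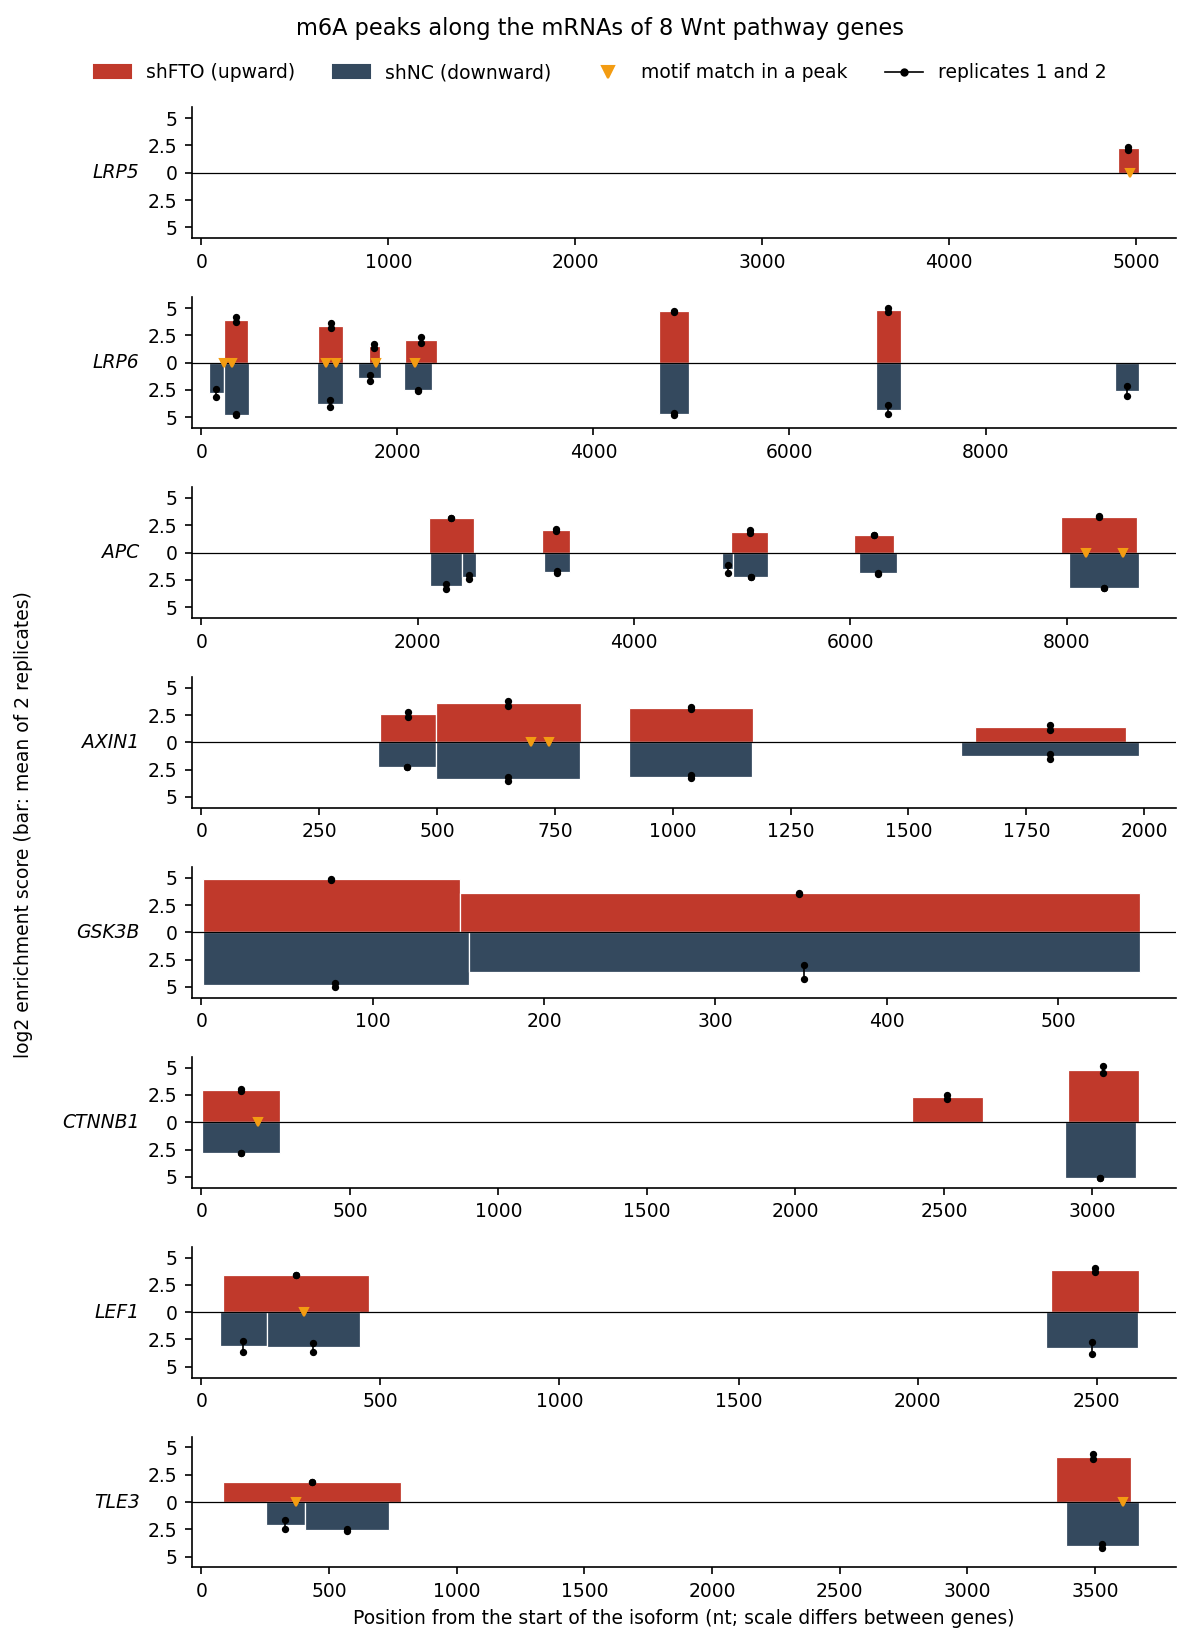
Peaks along the mRNAs of the 8 listed genes. The x axis is the position on the isoform in nt and the y axis the log2 enrichment score, with shFTO bars above the line and shNC bars below it at the mean of 2 replicates, replicates as joined dots and GGACT matches as triangles. The 4 peaks without a counterpart are the LRP5 peak from 4901 and the CTNNB1 peak from 2394 in shFTO, and the LRP6 peaks from 76 and from 9323 in shNC.

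For LRP5, a co-receptor of Frizzled (chromosome 11, 68298412 to 68449275, isoform NM_001291902), the 1 peak lay at the stop codon, at nucleotides 4901 to 5013. Its log2 scores in the shFTO replicates were 2.10 and 2.36, and no peak was listed in shNC. Of all shFTO peaks, 40.4% scored lower, and of the shFTO stop codon peaks 29.4%. Its GGACT match stood 12 nt from its centre. Of the 10078 mRNAs in either list, 782 (7.76%) were listed in shFTO only and 603 (5.98%) in shNC only, and the shNC list does not give the score of this place.

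LRP6, the other co-receptor (chromosome 12, 12116025 to 12267044, isoform NM_002336), carried the most peaks of the 10 genes, 6 in shFTO and 8 in shNC. At least 6 peaks were listed for 211 genes in shFTO (2.23% of its genes), and at least 8 for 68 genes in shNC (0.731%). In shFTO its highest scores were those of the 3′UTR peak from nucleotide 6880 and the coding peak from 4668, which held no GGACT match, and in shNC the coding peaks from 226 and 4669. The 4 coding peaks that held its 6 GGACT matches lay between nucleotides 226 and 2404.

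At the LRP6 coding peak from nucleotide 226 to 478 in shFTO, and to 480 in shNC, the log2 scores were 4.15 and 3.72 in shFTO, against 4.82 and 4.69 in shNC. Both shFTO replicates were below both shNC replicates. The log2 ratio of shFTO over shNC was -0.82 (standard error 0.30, 95% interval -1.50 to -0.14), with an unadjusted p of 0.023 and an adjusted p of 0.744 from limma over all 12117 pairs. Leaving out 1 library at a time gave log2 ratios from -1.04 to -0.60. Such a fit leaves 1 library in a group, which is assumed to vary like the 2 libraries of the other group. The unadjusted p did not stay under 0.05 in all of these fits. With all libraries, this was the only 1 of the genes' 17 tested pairs with an unadjusted p under 0.05. Of all pairs, 3.68% were that low on the same side. In shNC this peak abutted a start codon peak from 76 to 225, with scores of 2.37 and 3.16, that had no counterpart in shFTO. With the abutting shNC peaks joined into 1, the scores were 4.15 and 3.72 in shFTO, against 3.92 and 4.12 in shNC, and the groups overlapped. The log2 ratio was then -0.08 (95% interval -0.76 to 0.60, adjusted p = 0.990). These are unlike stretches, 226 to 478 in shFTO and 76 to 480 in shNC, and the lower start codon peak brings the joined shNC score down. The shFTO list gives no score for 76 to 225, so the same stretch could not be compared between the groups.

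The other LRP6 coding peaks gave smaller ratios. From 1192 in shFTO and 1177 in shNC, the scores were 3.60 and 3.17 in shFTO, against 3.43 and 4.11 in shNC, with a log2 ratio of -0.39 and overlapping groups (adjusted p = 0.956). From 2081 and 2071, they were 2.34 and 1.77 in shFTO, against 2.47 and 2.57 in shNC, and here both shFTO replicates were the lower ones, with a log2 ratio of -0.46 (adjusted p = 0.933). Both of these peaks held GGACT matches. The peak from 1711 to 1820 in shFTO and from 1601 to 1830 in shNC was among the weakest, with 1.37 and 1.68 in shFTO and 1.65 and 1.15 in shNC. Its ratio of 0.13 became -0.13 without shNC replicate 2 and -0.03 without shFTO replicate 2.

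The LRP6 coding peak from 4668 in shFTO and 4669 in shNC scored 4.68 and 4.73 in shFTO, against 4.61 and 4.82 in shNC. Its log2 ratio was -0.01 with a 95% interval from -0.66 to 0.64, and it was above 0 without shNC replicate 2 (0.09) or without shFTO replicate 1 (0.02). The 3′UTR peak from 6880 scored 5.04 and 4.64 in shFTO, against 3.86 and 4.75 in shNC. Here shNC replicate 1 stood apart from the other 3 values, and the log2 ratio of 0.54 (standard error 0.36, adjusted p = 0.933) was 0.10 without it. The distal 3′UTR peak from 9323 to 9561 was listed in shNC only, with 3.02 and 2.17. LRP6 thus had pairs on both sides of 0, with 2 above it and 4 below it.

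APC, a tumour suppressor and subunit of the destruction complex (chromosome 5, 112707498 to 112846239, isoform NM_001127510), had 5 peaks in shFTO and 7 in shNC, all in coding sequence. Its highest peak in both groups was the most distal, at 7944 to 8645 in shFTO and 8025 to 8664 in shNC, which held both of its GGACT matches. The scores there were 3.33 and 3.26 in shFTO, against 3.28 and 3.24 in shNC, a log2 ratio of 0.03 (95% interval -0.60 to 0.67). The groups overlapped.

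The other APC peaks were lower. From 3150 in shFTO and 3164 in shNC, the scores were 1.94 and 2.15 in shFTO, against 1.68 and 1.89 in shNC, and both shFTO replicates were the higher ones (log2 ratio 0.26, adjusted p = 0.967). From 6036 and 6081, they were 1.65 and 1.59 in shFTO, against 1.89 and 1.93 in shNC, and both shFTO replicates were the lower ones (log2 ratio -0.29, adjusted p = 0.967). These peaks of 1 mRNA thus differed in sign, and neither passed the test.

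At a pair of places 1 shFTO peak of APC overlapped 2 abutting shNC peaks. The shFTO peak from 2103 to 2518 scored 3.20 and 3.14, against 3.30 and 2.85 for the shNC peak from 2111 and 2.02 and 2.47 for the shNC peak from 2413. Joined, the log2 ratio was 0.33 (adjusted p = 0.897). The shFTO peak from 4898 to 5242 scored 2.05 and 1.77, against 1.92 and 1.16 for the shNC peak from 4813 to 4918 and 2.21 and 2.23 for that from 4919, and joined their log2 ratio was -0.14 (adjusted p = 0.969). Most of the shNC peak from 4813 lay upstream of this shFTO peak, in a stretch that the shFTO list does not score.

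AXIN1, the scaffold that brings the kinases to beta-catenin (chromosome 16, 287440 to 352723, isoform NM_003502), had the same 4 peaks in both groups, 1 at the start codon and 3 in coding sequence. The start codon peak, from 378 in shFTO and 374 in shNC, scored 2.37 and 2.81 in shFTO, against 2.28 and 2.22 in shNC. Both shFTO replicates were above both shNC replicates, and the log2 ratio was 0.34 (standard error 0.30, adjusted p = 0.956). The coding peak that follows from 498 was the highest and held both GGACT matches. It scored 3.38 and 3.77 in shFTO, against 3.55 and 3.14 in shNC, a log2 ratio of 0.23 with overlapping groups (adjusted p = 0.979).

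The remaining AXIN1 peaks had ratios close to 0. From 907 in shFTO and 908 in shNC, the scores were 3.03 and 3.26 in shFTO, against 3.23 and 3.03 in shNC, a log2 ratio of 0.02 that was -0.09 without shNC replicate 2 and -0.10 without shFTO replicate 2. From 1641 and 1611, they were 1.18 and 1.59 in shFTO, against 1.51 and 1.03 in shNC. This ratio of 0.11 was -0.13 without shNC replicate 2 and -0.09 without shFTO replicate 2, so for both peaks the sign rested on single libraries.

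GSK3B, the kinase that phosphorylates beta-catenin in the complex (chromosome 3, 119821321 to 120094447, isoform NM_002093), carried its peaks in the 5′UTR only, over nucleotides 1 to 547, in both groups and with no GGACT match. The peak at its 5′ end scored 4.84 and 4.87 in shFTO, where it ended at 150, against 5.0 and 4.62 in shNC, where it ended at 155. This placed it above 94.3% of the shFTO peaks and 93.6% of the shNC peaks. The peak that follows scored 3.54 and 3.59 in shFTO, against 4.24 and 3.01 in shNC, and the shNC replicates lay on either side of both shFTO replicates. Since the border of these peaks differed by 5 nt, they were not pairs of 1 peak with 1 peak. Joined, they scored 3.89 and 3.94 in shFTO, against 4.45 and 3.46 in shNC, with a ratio on the log2 scale of -0.04 (95% interval -0.87 to 0.78, adjusted p = 0.996).

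CTNNB1, which encodes beta-catenin (chromosome 3, 41199505 to 41240443, isoform NM_001904), had 3 peaks in shFTO and 2 in shNC. Its 3′UTR peak, from 2917 to 3155 in shFTO and 2907 to 3145 in shNC, was the highest of the shNC peaks of the 10 genes, and 94.0% of all shFTO peaks and 95.9% of all shNC peaks scored lower. The scores were 5.14 and 4.51 in shFTO, against 5.11 and 5.11 in shNC. Only shFTO replicate 2 departed from the others, and the log2 ratio of -0.29 (standard error 0.32, 95% interval -1.01 to 0.44, adjusted p = 0.967) was 0.03 without it. This peak held no GGACT match.

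The 5′UTR peak of CTNNB1 lay at nucleotides 1 to 263 in both groups. It scored 3.05 and 2.89 in shFTO, against 2.80 and 2.81 in shNC, with both shFTO replicates the higher ones and with a ratio of 0.16 on the log2 scale (standard error 0.28, adjusted p = 0.985). The GGACT match printed above stood in it. A stop codon peak from 2394 to 2629 was listed in shFTO only, with 2.47 and 2.11. Of all shFTO peaks, 42.3% scored lower, and of the shFTO stop codon peaks 31.3%. As for LRP5, the score of this place in shNC is not given.

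LEF1, a DNA-binding partner of beta-catenin (chromosome 4, 108047548 to 108168932, isoform NM_016269), had a 5′UTR and a stop codon peak in both groups. The stop codon peak, from 2374 in shFTO and 2359 in shNC, scored 3.69 and 4.02 in shFTO, against 3.81 and 2.78 in shNC. Its log2 ratio of 0.56 was the highest of the 17 pairs (standard error 0.38, 95% interval -0.30 to 1.42, adjusted p = 0.933), the groups overlapped, and the ratio was 0.05 without shNC replicate 2. In the 5′UTR, 1 shFTO peak from 60 to 466 scored 3.44 and 3.39, against 3.67 and 2.63 for the shNC peak from 52 and 3.62 and 2.81 for that from 182. Joined, the log2 ratio was 0.22 (adjusted p = 0.958). In all 3 LEF1 peaks of shNC, replicate 2 was the lower one.

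TLE3, a corepressor that holds TCF and LEF target genes silent (chromosome 15, 70047790 to 70097917, isoform NM_005078), also had 5′UTR and stop codon peaks. The stop codon peak, from 3348 in shFTO and 3388 in shNC, scored 3.94 and 4.36 in shFTO, against 4.18 and 3.82 in shNC. Its log2 ratio of 0.15 (adjusted p = 0.991) was -0.03 without shNC replicate 2 and -0.06 without shFTO replicate 2. The 5′UTR peak of shFTO, from 85 to 782, was wide and low, with 1.83 and 1.87. The shNC list divided that place into a peak from 253 with 1.61 and 2.52 and a peak from 407 with 2.45 and 2.69. Joined, both shFTO replicates were the lower ones, with 1.83 and 1.87 in shFTO against 2.18 and 2.63 in shNC, and the ratio was -0.56 on the log2 scale (95% interval -1.23 to 0.12, adjusted p = 0.775).

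**Figure D2:**
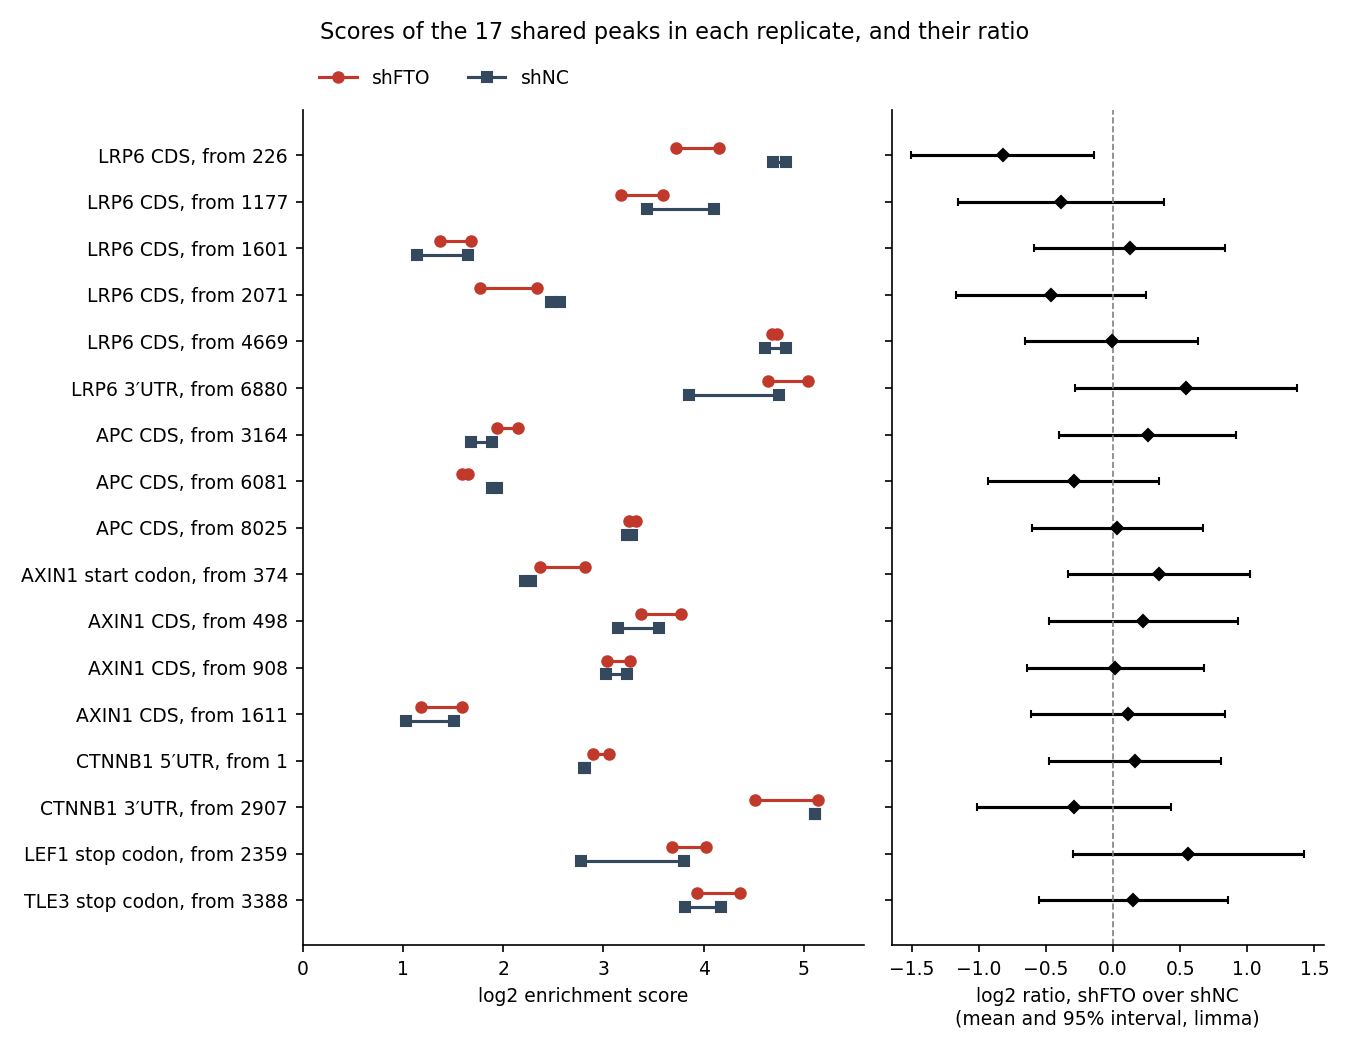
Scores of the 17 pairs of peaks that overlapped 1 to 1. Left, log2 enrichment score of each replicate, with shFTO circles above shNC squares, and right, log2 ratio of shFTO over shNC with its 95% interval from limma, with peaks named by the start of the shNC peak. In 16 of 17 pairs the interval includes 0, and the exception is the LRP6 peak from 226.

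No score of these genes differed between shFTO and shNC cells beyond the threshold of the test. The 17 pairs of LRP6, APC, AXIN1, CTNNB1, LEF1 and TLE3 that overlapped 1 to 1 had adjusted p-values from 0.744 to 1.0 in limma, and 0 were called. Over all 12117 pairs 0 were also called (0.0%), with 279 pairs higher (2.3%) and 446 lower (3.68%) in shFTO at an unadjusted p under 0.05. Leaving out a library, with the lone library of a group assumed to vary like the other group, moved the number called over all pairs to 6 without shNC replicate 2, 7 without shFTO replicate 1 and 11 without shFTO replicate 2, with 0 without shNC replicate 1 and none of the 17 pairs among them. The 95% intervals of the 17 log2 ratios were not adjusted for the number of pairs and reached 0.64 to 0.86 to either side. Differences smaller than that could not be told from 0 even before adjustment. Larger ones did not pass the adjusted limma test either. The LRP6 peak from 226, at -0.82, had an adjusted p of 0.744. Of the other pathway genes below, DKK1 at 1.24 and TBL1XR1 at -1.16 each had an adjusted p of 0.640. Such a ratio may reflect no difference or a difference that the adjusted test missed, and these could not be told apart.

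In 3 of the 17 pairs both shFTO replicates were above both shNC replicates (15.7% of all pairs), and in 3 they were below (17.7% of all pairs). The 3 above were the APC peak from 3164, the AXIN1 peak from 374 and the CTNNB1 peak from 1, and the 3 below were the LRP6 peaks from 226 and 2071 and the APC peak from 6081, by their shNC starts. The log2 ratio was above 0 in 11 pairs and below 0 in 6, against 48.4% and 51.6% of all pairs. The median was 0.11, against -0.01 over all pairs, with a standard deviation of 0.40 over all pairs. Without shNC replicate 2 or without shFTO replicate 2 the median was -0.03, so its sign rested on those libraries. Without the 6 LRP6 pairs, 9 of 11 were above 0 and 2 below, with a median of 0.15. This subset was not planned, and it leaves out the gene with most of the pairs below 0. Its median was not computed with 1 library left out. Peaks of 1 mRNA share its median window, so they are not independent of each other.

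**Figure D3:**
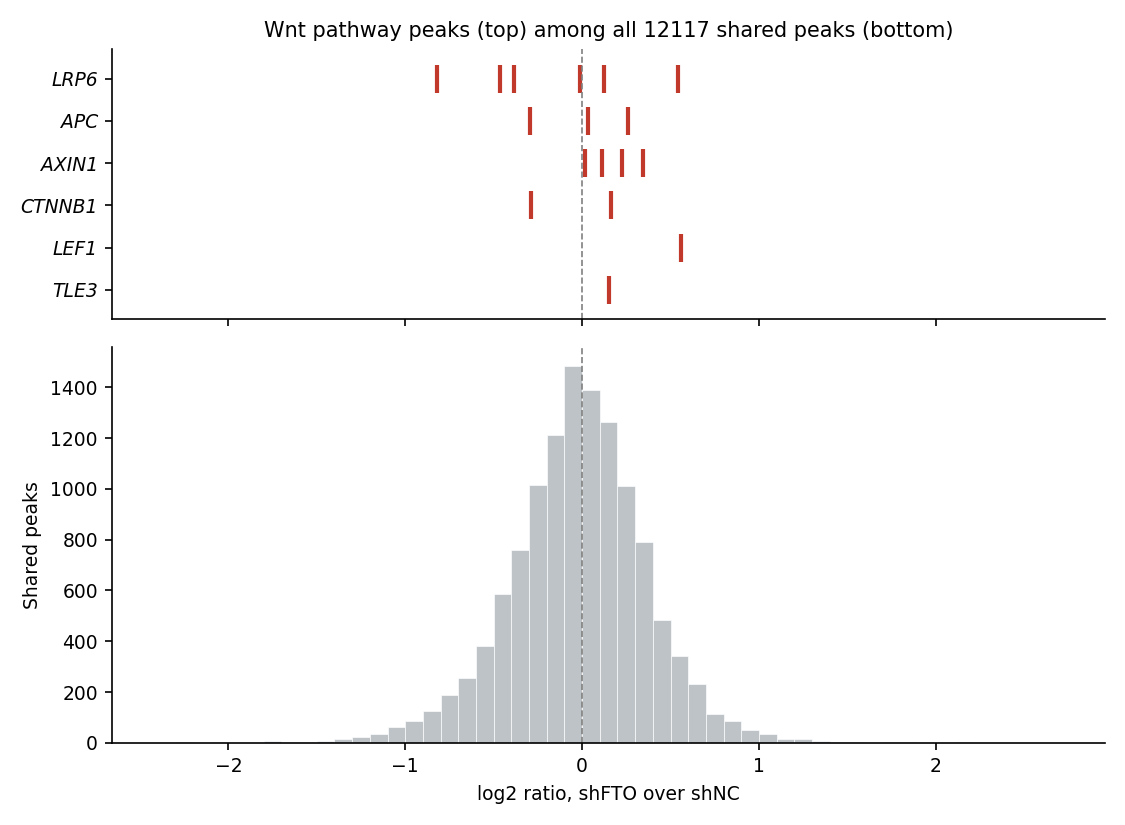
Log2 ratios of the 17 pairs by gene (top, 1 tick per pair) above the number of all 12117 pairs in bins of the same ratio (bottom). The ticks run from -0.82 to 0.56 and lie within the range of all pairs, whose median is -0.01.

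Other genes of the pathway were counted from a list of 124 genes in 6 roles that holds the 10 genes. Of the 114 others, 57 had a peak in either list and 52 in both. They gave 91 pairs in 48 genes. Of these pairs, 41 had a log2 ratio above 0 and 50 below 0, against 48.4% and 51.6% of all pairs. The median was -0.02. After adjustment by limma 0 of the 91 were called, with a lowest adjusted p of 0.640. At an unadjusted p under 0.05 were 4 of the 91 higher and 4 lower in shFTO, against 2.3% and 3.68% of all pairs. For the whole list of 124 genes the median was -0.01 and was above 0 without shNC replicate 1 (0.08) or without shFTO replicate 2 (0.02).

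The ligands were nearly absent from the lists. Of 26 genes for ligands and their export, 3 were listed, the export factors WLS and PORCN in both groups and WNT2B in shFTO only, with a stop codon peak of 3.19 and 3.49. WLS, which carries Wnt proteins to the surface, scored 4.33 and 4.78 in shFTO, against 4.48 and 4.47 in shNC, at its stop codon. Of the other receptors 9 of 16 were listed in both groups, with 7 pairs above 0 and 5 below, and 4 above and 8 below without shFTO replicate 1. FZD4, a Frizzled receptor, had a 3′UTR peak of 3.31 and 2.91 in shFTO, against 2.29 and 2.38 in shNC (log2 ratio 0.78, adjusted p = 0.761), while its coding peak from 1189 scored 4.12 and 4.12 in shFTO, against 4.10 and 5.10 in shNC (-0.48). The Frizzled receptors FZD5 and FZD6 had log2 ratios of -0.46 and 0.38 at their highest peaks. LGR4, a receptor for R-spondins, had a mean score of 5.46 in shFTO and 4.88 in shNC at the highest peak of each list, which was not part of a tested pair, and a ratio of 0.10 at its 5′UTR peak, its only tested pair (3.90 and 3.64 in shFTO, against 3.52 and 3.82 in shNC).

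Of 19 inhibitors at the cell surface, 4 were listed in both groups. ZNRF3, a ubiquitin ligase that removes Frizzled receptors from the surface, had the highest scores of these, with a mean of 5.19 at the highest of its 5 peaks in shFTO, against 5.18 at its 1 peak in shNC, but no tested pair, and it is named after its values were seen. DKK1, which binds LRP5 and LRP6 and blocks them, had the highest ratio of the list. Its stop codon peak scored 3.68 and 4.15 in shFTO, against 2.55 and 2.80 in shNC. Both shFTO replicates were above both shNC replicates, as in 15.7% of all pairs. The log2 ratio was 1.24 (standard error 0.31, adjusted p = 0.640 in limma). KREMEN1, a receptor for DKK proteins, scored 4.05 and 3.92 in shFTO and 4.24 and 3.87 in shNC at its stop codon, and the secreted inhibitor SFRP1 scored 4.52 and 4.15 in shFTO and 4.43 and 4.11 in shNC in its coding peak. DKK3 was listed in shFTO only (2.30 and 1.95), and KREMEN2 in shNC only, with 3 peaks of which the highest, at the stop codon, scored 4.01 and 3.43.

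Of the 23 other genes of the destruction complex and its regulators, 15 were listed in both groups, with 12 pairs above 0 and 17 below, and 17 above and 12 below without shNC replicate 1. TNKS, a tankyrase that marks axins for degradation, was lower in shFTO at its stop codon and in its 3′UTR at an unadjusted p under 0.05. The 3′UTR scores were 4.58 and 4.77 in shFTO, against 5.43 and 5.46 in shNC (log2 ratio -0.77, adjusted p = 0.744), and the stop codon scores 4.47 and 4.24 in shFTO, against 5.01 and 5.20 in shNC (-0.75, adjusted p = 0.767). At both places both shFTO replicates were below both shNC replicates, as in 17.7% of all pairs. The casein kinase CSNK1G1 had the highest scores of this role, 6.13 and 6.26 in shFTO, against 5.86 and 5.93 in shNC, in its 3′UTR (log2 ratio 0.30, adjusted p = 0.965). The casein kinases CSNK1D and CSNK1G2 had log2 ratios of 0.58 and -0.24 at their highest peaks. RNF146, a ubiquitin ligase that acts after tankyrase, was listed in shFTO only (2.06 and 2.10), and DACT1, a binding partner of Dishevelled, in shNC only, with 2.99 and 3.42 at the higher of its 2 peaks.

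Among the 18 other nuclear factors, 12 were listed in both groups. Their 22 pairs came from 11 genes, and pairs of 1 mRNA are not independent of each other. Of these pairs, 17 had a log2 ratio below 0, against 51.6% of all pairs. The median was -0.13, against -0.01 over all pairs. With libraries centred or quantile normalized, 17 and 16 were below 0, while without shFTO replicate 2 they were 11 of 22, with a median of -0.04. TBL1XR1, a corepressor exchange factor, had the lowest ratio of the list, with stop codon scores of 3.74 and 3.81 in shFTO, against 5.07 and 4.80 in shNC (log2 ratio -1.16, standard error 0.29, adjusted p = 0.640). BCL9L, a co-activator of beta-catenin, differed the other way in its coding peak from 4913, with 3.77 and 3.01 in shFTO, against 2.67 and 2.29 in shNC (0.91, adjusted p = 0.757). The histone acetyltransferases EP300 and CREBBP, with ratios of -0.07 and -0.61 at their highest peaks, the corepressor CTBP2 (-0.50) and the remodeller CHD8 (-0.22) had the highest scores of this role.

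Of 12 target genes, 10 were listed in both groups, with 11 pairs above 0 and 7 below, and 8 above and 10 below without shNC replicate 2. MITF, the master transcription factor of melanocytes, scored 5.87 and 4.99 in shFTO, against 6.01 and 5.88 in shNC, in its coding peak (log2 ratio -0.52, adjusted p = 0.933). BIRC5, an inhibitor of apoptosis, had a 3′UTR peak of 3.80 and 3.48 in shFTO, against 2.79 and 2.36 in shNC (1.06, adjusted p = 0.657). CD44, a surface receptor for hyaluronan, had a coding peak from 1540 of 3.23 and 2.45 in shFTO, against 3.92 and 3.97 in shNC (-1.11, adjusted p = 0.694), while its neighbouring coding peak from 1341 had a ratio of 0.17. The nuclear receptor gene PPARD and TNFRSF19, of the TNF receptor family, had log2 ratios of 0.43 and 0.33 at their highest peaks. POU3F2, a transcription factor of the neural lineage, had replicates far apart in both groups, 5.39 and 3.75 in shFTO and 3.27 and 5.34 in shNC.

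**Figure D4:**
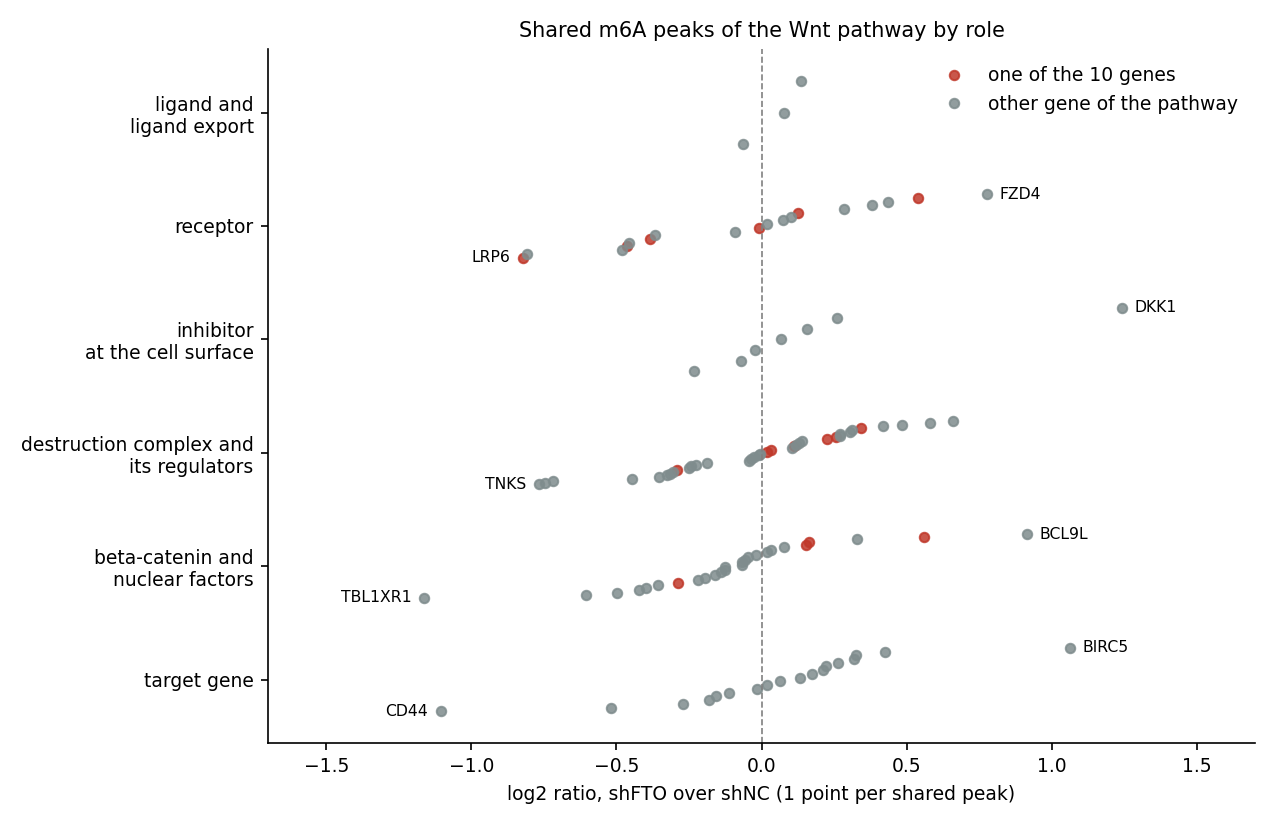
Log2 ratio of shFTO over shNC for each of the 108 pairs of the 124 pathway genes, by role, with pairs of the 10 genes in red and of other genes in grey. Names mark the pairs with an unadjusted p under 0.05, from TBL1XR1 at -1.16 to DKK1 at 1.24, none of which passed the adjusted test. Each gene is named once, also TNKS, whose stop codon and 3′UTR pairs were both under 0.05.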

How the data were processed

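m6A-seq was analysed in shFTO and shNC Mel624 cells, with 2 replicates per group. The authors trimmed adapters with cutadapt, aligned reads to hg38 with TopHat2 version 2.0.14, moved them to the longest RefSeq isoform of each gene, scanned windows with a Fisher exact test and a minimum enrichment score, and merged overlapping windows into peaks. They deposited 1 peak list per group with the log2 enrichment score of each replicate. The sources used here do not say how a list was made from its replicates. The authors' list of GGACT matches and the region of each peak were used as deposited.

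Peaks on the same isoform with at least 1 bp in common were paired, and the 12117 pairs in which each peak overlapped 1 peak only were compared in R 4.3.3 with limma, version 3.58.1 (lmFit and eBayes, group as the only term, Benjamini-Hochberg adjustment over all pairs). The test was tried on simulated scores with known changes, whose spread was drawn from the same fit. No result here rests on that trial. Where 1 peak overlapped several, abutting peaks of a list were joined, with scores weighted by width, and refitted over all 13767 joined pairs, whose stretches can differ in length between the groups. GGACT matches were placed on GENCODE version 44 transcripts by position, region and codon labels. Positions of whole genes are those of RefSeq on GRCh38. Python 3.11.15 with pandas 2.3.3, numpy 2.4.6, scipy 1.17.1 and matplotlib 3.10.9 was used for the rest.

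The 10 genes, the list of 124 pathway genes and the markers were chosen with earlier results of these data known. All peaks of the 10 genes are described. Of the other pathway genes, up to 4 per role with the highest mean score among tested pairs, those with an unadjusted p under 0.05 and those listed in 1 group only are named. Input reads and expression values were not used here.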

Additional observations from a re-analysis of the deposited data

How the results depend on the processing

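No pair of the 10 genes was called under any alternative run, and the lowest adjusted p of such a pair was 0.352, at the LRP6 peak from 226 with crossed replicate numbers. Of 239 values of single pairs under the alternatives, 226 kept their direction and 13 turned. Many could not turn, since a replicate block, crossed or not, and the filters of pairs leave the ratio of a pair as it was. Of the 17 pairs, 6 turned under at least 1 alternative, 5 of them only with 1 library left out. The fit with the replicate number as a block called 0 of all pairs, as did the fit without it, with an adjusted p of 1.0 at the LRP6 peak from 226. Same-numbered replicates share only a number, and their deviations correlated at -0.27 between groups. The crossed pairing, added after seeing the data, called 13 of all pairs, and leaving out 1 library called 0 to 11. The ratios that turned ranged, with 1 library left out, from -0.60 to 0.03 at the CTNNB1 peak from 2907, from -0.13 to 0.38 at the LRP6 peak from 1601, from -0.11 to 0.094 at the LRP6 peak from 4669, from -0.10 to 0.13 at the AXIN1 peak from 908, from -0.13 to 0.35 at the AXIN1 peak from 1611 and from -0.059 to 0.36 at the TLE3 peak from 3388. The LRP6 peak from 4669 also turned to 0.010 with libraries centred and 0.047 with quantile normalization. The median over the 17 pairs was 0.078 to 0.13 under the alternatives that kept all libraries and these pairs, and -0.03 to 0.13 with 1 library left out. Other filters and overlaps, 1 pair per gene or no LRP6 gave 6 to 22 pairs with a median of 0.03 to 0.15. The median of the 124-gene list was -0.10 to 0.079 with 1 library left out, 0.042 with quantile normalization and 0.070 with 1 pair per gene. Of the peaks of the 10 genes, those without a partner numbered 4 in shFTO and 8 in shNC when 50% of each peak had to overlap. In shNC they numbered 7 with peak centres within 50 bp, 5 with a score of at least 2 and 1 with abutting peaks joined. The causes were not tested. Precision is limited by 2 replicates per group and by the depth, which is unknown.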
